A study of Mus musculus with 5 samples.

Results

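Keratin-associated proteins (Krtap genes) are the matrix proteins of the hair shaft, and their transcripts were described here in mouse back-skin keratinocytes at 28 days of age. The family was taken as every row of the count table whose Ensembl gene ID, with the version removed, maps to a mouse symbol starting with Krtap: 58 of 56691 gene IDs. The study compared 3 libraries of cells sorted for GFP, which the labels call Lrig1 positive epidermal stem cells, with 2 bulk libraries labelled as the whole basal keratinocyte population with a wild-type genotype. Lrig1 encodes a membrane protein that restrains EGF-family receptors and is a marker of stem cells in the upper follicle. For the reporter construct, the gates and the strain, nothing is given in the sources used here. No label states whether replicate libraries were made from different mice. The p-values therefore measure the spread between these libraries, which may be in part technical; sex-linked transcripts, given below, set GFP-sorted 3 apart from the other libraries.

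In a growing hair, cells above the bulb fill first with hair keratins, which form intermediate filaments, and then with Krtap proteins, which pack between the filaments and bind them through disulfide bonds. The genes are small, lie in clusters and fall into numbered subfamilies, grouped by their residues as high sulfur, ultra-high sulfur (both rich in cysteine) and high glycine-tyrosine. They are made in the cortex and cuticle of the shaft and serve as markers of hair-forming cells, not of the basal epidermis.

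The subfamily numbers put 20 members in the high sulfur class, 20 in the ultra-high sulfur class and 16 in the high glycine-tyrosine class, and left the 2 Krtap31 genes without a class. The median codon shares from GENCODE M21 transcripts followed the classes, but the ranges of the classes overlapped. Cysteine codons made up a median of 37.25% of the coding sequence in the ultra-high sulfur class, 17.35% in the high sulfur class and 8.0% in the 15 coding genes of the high glycine-tyrosine class. Glycine and tyrosine codons together made up a median of 63.3% in the last. Several members lay away from the rest of their class. Krtap15 had the lowest cysteine share of the high sulfur class, 4.0%, and Krtap14 and Krtap13-1 had 9.0% and 9.5%. Krtap16-3, numbered as high sulfur, had 59.3% glycine and tyrosine codons and 8.1% cysteine codons. Krtap28-10 and Krtap28-13, also numbered as high sulfur, had the highest cysteine shares of the family (42.9% and 42.8%) together with 38.7% and 42.0% glycine and tyrosine codons. In the ultra-high sulfur class Krtap5-3 and Krtap17-1 combined 35.1% and 35.8% cysteine codons with 39.3% and 34.9% glycine and tyrosine codons, and Krtap5-2 lay between them in the latter share. Krtap7-1 had the lowest glycine and tyrosine share of its class, 29.9%. In M21, 25 members lie on chromosome 16, 23 on chromosome 11, 5 on chromosome 7, 3 on chromosome 10 and 2 on chromosome 1.

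**Figure D1:**
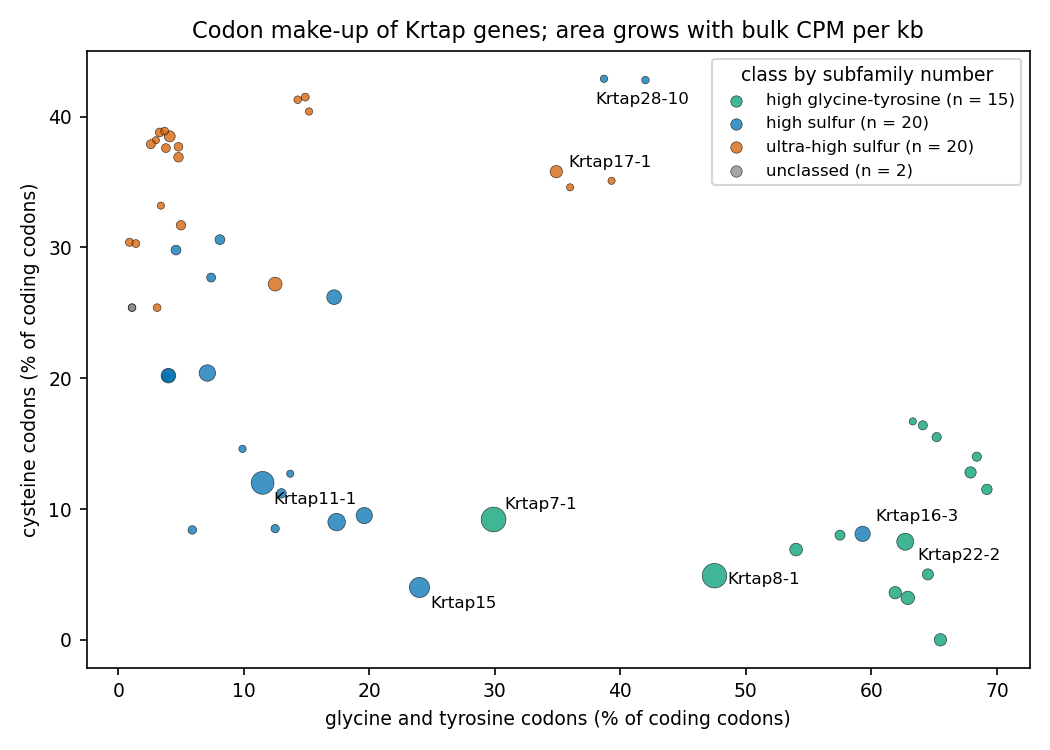
Share of cysteine codons (vertical axis, % of coding codons) against share of glycine and tyrosine codons (horizontal axis, % of coding codons) for the 57 Krtap genes with a coding transcript in M21. Colour gives the class by subfamily number and area grows with mean bulk CPM per kb; Krtap16-3, a high sulfur gene by number, sits among the high glycine-tyrosine genes.

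Library totals ran from 56829330 (bulk 1) to 105887450 (bulk 2) counts, so that 3 counts equalled 0.0269 to 0.0502 CPM (counts scaled to one library size after TMM adjustment). Transcripts of the 7 basal layer genes summed to 21730 and 24560 CPM in bulk and to 33400 to 42490 CPM in the GFP-sorted libraries, and those of the 6 suprabasal genes to 15930 to 19910 and 7929 to 11370 CPM. Lrig1 itself measured 163.4 and 155.2 CPM in bulk and 209.8, 226.2 and 212.7 CPM in GFP-sorted 1, 2 and 3. It was above bulk in every GFP-sorted library but not called (log2 change 0.44 ± 0.18, SE, edgeR adjusted p = 0.292). The female transcript Xist had 53714 counts in GFP-sorted 3 and at most 8 in any other library, and Ddx3y, a gene of the Y chromosome, 62 counts there and at least 1750 elsewhere. GFP-sorted 3 thus had a female pattern and all other libraries a male one, so it came from other mice than they did. Sex was not balanced between the groups, and its part was not tested. In bulk tissue, fewer cells of a type and less RNA per cell cannot be told apart.

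Krtap transcripts were far more abundant in the bulk libraries than in the GFP-sorted ones. The 58 genes together reached 346.6 CPM in bulk 1 and 226.2 CPM in bulk 2, against 3.23, 2.20 and 3.15 CPM in GFP-sorted 1, 2 and 3. The GFP-sorted mean was 0.999% of the bulk mean. Of the 58 members, 6 had no count in any library (Krtap4-13, Krtap5-2, Krtap5-3, Krtap9-5, Krtap13 and Krtap20-2), 20 had counts too low to test (2 to 39 in bulk, at most 6 in the GFP-sorted libraries), and 32 passed the filter on low counts. Of those 32, 26 reached its level only in the bulk libraries, so their direction was largely set by the filter and their counts are an account, not support.

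By edgeR's quasi-likelihood test with Benjamini-Hochberg adjustment over all 18583 tested genes, 27 of the 32 fell in the GFP-sorted libraries and none rose; 5.14% of all tested genes were called lower and 0.145% higher. No tested member was higher even at an unadjusted p under 0.05, and DESeq2 also called 0 higher. Adjusted p of the 27 ran from 3.61e-05 to 0.0349. The median log2 change of the 32 was -6.75, or -5.89 with the members at 0 in the GFP-sorted libraries set at the limit that 3 counts allow, beside 0.05 over all tested genes. In 31 of the 32 every GFP-sorted library was below both bulk libraries, which held for 18.5% of all tested genes. Only 6 of the 32 reached the filter's level in some GFP-sorted library. Of these 6, Krtap7-1, Krtap8-1 and Krtap11-1 were called lower, and Krtap3-2, Krtap16-1 and Krtap17-1 were not called. Krtap8-1 and Krtap16-1 reached that level in only 1 GFP-sorted library, too few to pass without bulk. For the other 26, and in part for Krtap8-1 and Krtap16-1, the comparison with all tested genes was largely set by the filter. Without bulk 1 the count of calls dropped from 27 to 12, since 15 members of low level lost theirs. These 12 were Krtap1-5, Krtap3-1, Krtap3-3, Krtap7-1, Krtap8-1, Krtap9-3, Krtap11-1, Krtap13-1, Krtap14, Krtap15, Krtap16-3 and Krtap22-2, and they were called under all 13 alternatives run.

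**Figure D2:**
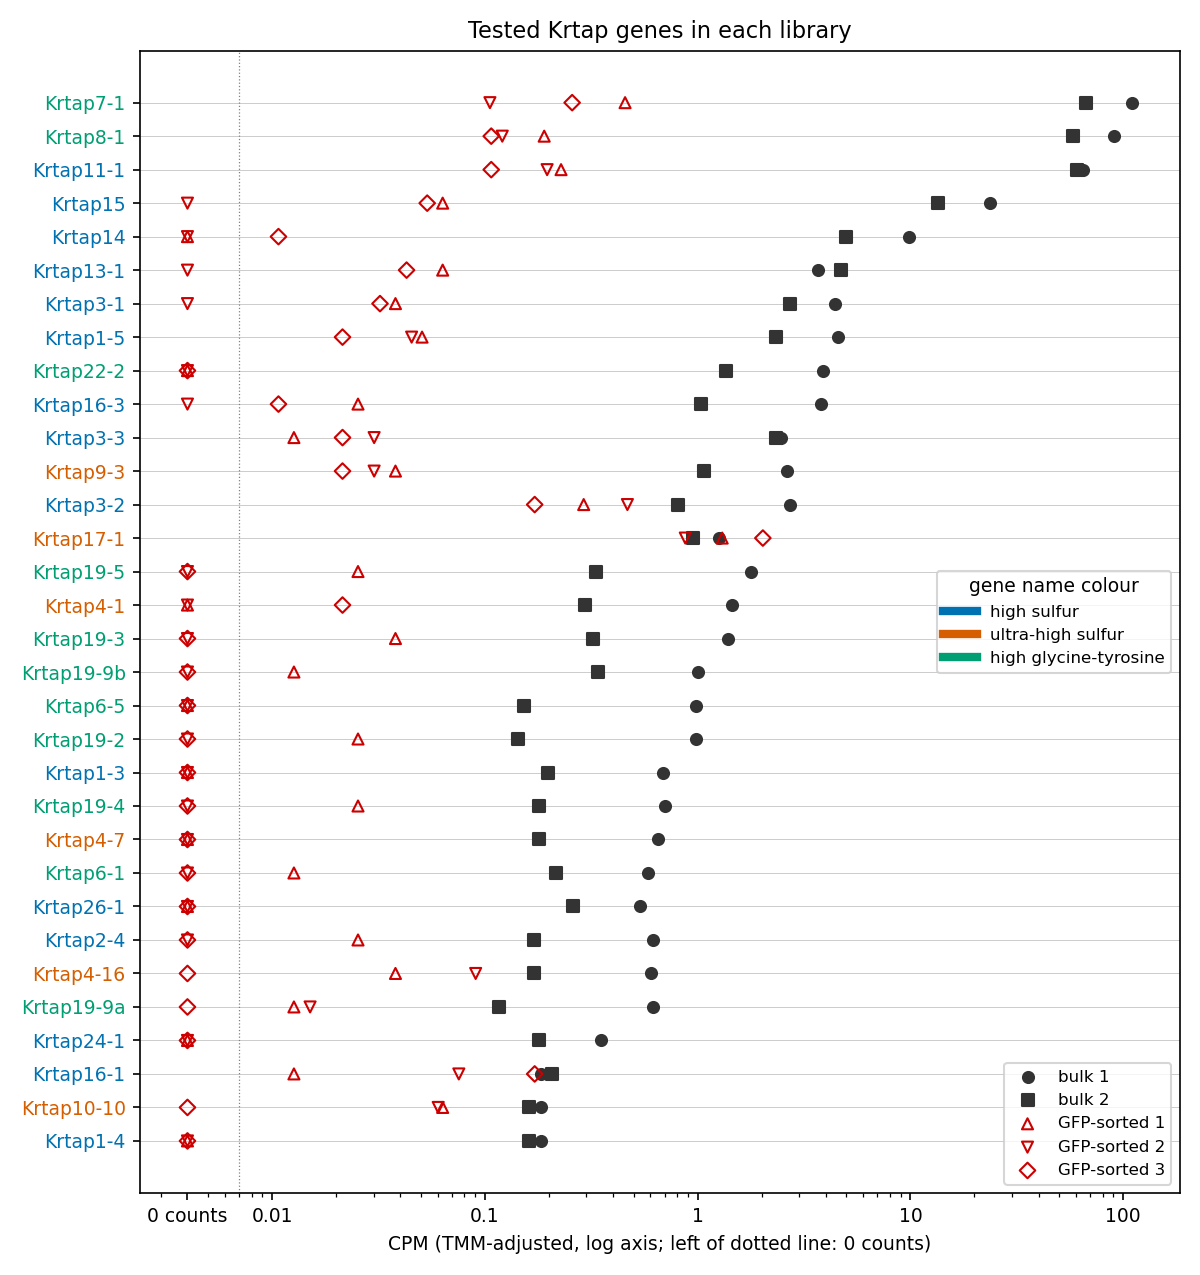
Level of each of the 32 tested Krtap genes (rows, ordered by mean bulk level) in each library, as TMM-adjusted CPM on a log axis; filled symbols are the 2 bulk libraries, open symbols the 3 GFP-sorted libraries, and symbols left of the dotted line had 0 counts. Krtap17-1 is the row in which the symbols of both groups mix.

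The high glycine-tyrosine class held most of the family's transcripts in bulk. It summed to 214.9 and 128.4 CPM in bulk 1 and 2 and to 0.887, 0.241 and 0.364 CPM in GFP-sorted 1, 2 and 3, a mean of 0.29% of bulk. Nearly all of it came from 2 genes. Krtap7-1, a glycine- and tyrosine-rich protein gene on chromosome 16, measured 110.6 and 66.7 CPM in bulk and 0.456, 0.106 and 0.257 CPM in the GFP-sorted libraries. Its log2 change was -8.31 ± 0.50 (SE), with an adjusted p of 1.66e-04 by edgeR. Krtap8-1, of the same class and chromosome, measured 90.7 and 58.4 CPM in bulk and 0.190, 0.121 and 0.107 CPM after sorting. The change was -9.05 ± 0.35 (SE), with an edgeR adjusted p of 3.61e-05. In both genes the lowest bulk library stood more than 100-fold above the highest GFP-sorted one.

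The other 14 high glycine-tyrosine genes were far less abundant, with 813 and 372 counts in all in bulk and 19, 1 and 0 counts in GFP-sorted 1, 2 and 3. Krtap22-2 was counted 233 and 151 times in bulk and never in any GFP-sorted library, which makes it at least 178-fold lower by the limit of 3 counts over the group (edgeR adjusted p = 0.00326; at least 310-fold against bulk 1 alone and at least 108-fold against bulk 2 alone). Krtap19-5, the highest of the Krtap19 genes by CPM without regard to length, had 106 and 37 counts in bulk against 2, 0 and 0. Its bulk level was 99.6 times the GFP-sorted level, with a 95% counting interval of 27.1 to 831; it was 211 times with bulk 1 alone and 39.6 times with bulk 2 alone, and the call was lost without bulk 1 (edgeR adjusted p = 0.112). Krtap6-5 was counted 59 and 17 times in bulk and never after sorting, at least 35.3-fold lower, or at least 12.1-fold against bulk 2 alone and at least 78.5-fold against bulk 1 alone. Its edgeR call (adjusted p = 0.0349) was lost without bulk 1 (0.182), GFP-sorted 1 (0.0527) or GFP-sorted 3 (0.0511). Both genes thus rest on few counts and largely on bulk 1. Such limits and intervals cover counting error only. All 11 tested members of this class were called lower, and 19 of the 20 counts of its low members after sorting came from GFP-sorted 1.

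High sulfur genes summed to 122.7 and 94.2 CPM in bulk and to 0.848, 0.875 and 0.653 CPM in the GFP-sorted libraries, 0.731% of bulk. Krtap11-1, a high sulfur protein gene, led the class with 64.7 and 60.5 CPM in bulk and 0.228, 0.196 and 0.107 CPM after sorting. It changed by -8.48 ± 0.32 (SE) on the log2 scale (edgeR adjusted p = 3.61e-05). The bulk libraries were close to each other for this gene, and both were far above all GFP-sorted ones. Krtap15 had 23.8 and 13.4 CPM in bulk against 0.063, 0 and 0.054 CPM, a log2 change of -8.76 ± 0.60 (SE; edgeR adjusted p = 2.62e-04). Krtap14 gave 586 and 552 counts in the bulk libraries against 0, 0 and 1 after sorting, a level ratio of 1590 with a counting interval of 284 to 62700. The spans of Krtap14 and Krtap15 overlap on opposite strands in M21, and strandedness is not stated. Neither transcript shared a 50-base word with another gene on either strand. Shorter overlaps and reads outside these transcripts were not examined. Krtap13-1, at 3.66 and 4.71 CPM in bulk against 0.063, 0 and 0.043 CPM, was one of only 2 tested members higher in bulk 2 than in bulk 1.

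Per kb of transcript, which allows genes to be compared, the order in bulk was Krtap7-1 (142.8 CPM per kb), Krtap8-1 (129.8), Krtap11-1 (62.1), Krtap15 (21.8) and Krtap14 (8.62). In CPM, Krtap7-1 stood above Krtap8-1 within each bulk library (110.6 against 90.7 in bulk 1, 66.7 against 58.4 in bulk 2). Their difference was not tested. Together, Krtap7-1, Krtap8-1 and Krtap11-1 held 78.8% of the family's CPM in bulk and 20.6% in the GFP-sorted libraries.

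Promoter sequences of RefSeq (build GRCm38.p6, from 250 bases before to 50 after the start) were found for 51 members. On these 51, the letters TATAAA began 20 to 40 bases before the start on the gene's strand in 31 (60.8%), against 2.0% of all 32817 promoters. The letters CTTTGAA, the core of the Lef1 and Tcf binding site of hair keratin promoters, occurred on either strand in 9 (17.6%), against 5.14% of all promoters. They were in 8 of 18 high sulfur promoters (44.4%), 1 of 14 high glycine-tyrosine promoters (7.14%) and 0 of 17 ultra-high sulfur promoters. Krtap promoters had a median of 41.3% G and C bases, against 52.7% for all promoters. The part of base composition, or of likeness between members, in these shares was not tested. The 2 words cannot overlap each other, and a match is a description of the letters, not of binding. The 250 bases before the start are printed for the most abundant member of the high sulfur class, a leading high glycine-tyrosine member, a member with CTTTGAA at 2 places and Krtap17-1, the member whose groups overlapped. Capitals mark TATAAA and CTTTGAA.
Krtap11-1, chr16:89571184-89571433, minus strand: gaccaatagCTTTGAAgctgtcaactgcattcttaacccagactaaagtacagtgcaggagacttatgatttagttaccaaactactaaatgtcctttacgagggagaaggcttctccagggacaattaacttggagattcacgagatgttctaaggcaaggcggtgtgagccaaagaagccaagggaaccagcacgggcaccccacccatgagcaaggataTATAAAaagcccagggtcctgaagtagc
Krtap8-1, chr16:89487953-89488202, minus strand: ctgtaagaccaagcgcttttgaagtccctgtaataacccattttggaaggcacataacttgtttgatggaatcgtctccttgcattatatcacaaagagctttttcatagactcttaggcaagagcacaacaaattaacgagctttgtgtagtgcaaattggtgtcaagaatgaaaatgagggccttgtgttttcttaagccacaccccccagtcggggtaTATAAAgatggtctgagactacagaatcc
Krtap15, chr16:88828759-88829008, plus strand: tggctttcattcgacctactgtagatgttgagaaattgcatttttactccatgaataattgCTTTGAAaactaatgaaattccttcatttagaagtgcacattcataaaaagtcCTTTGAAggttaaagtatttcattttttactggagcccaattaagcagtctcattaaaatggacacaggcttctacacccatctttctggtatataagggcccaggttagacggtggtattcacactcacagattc
Krtap17-1, chr11:99993995-99994244, minus strand: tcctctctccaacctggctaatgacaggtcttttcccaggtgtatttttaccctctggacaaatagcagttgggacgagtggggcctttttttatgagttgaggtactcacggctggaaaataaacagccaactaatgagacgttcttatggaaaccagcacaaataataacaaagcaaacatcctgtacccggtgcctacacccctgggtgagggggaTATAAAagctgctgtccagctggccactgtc
TATAAA began at -28 in Krtap11-1, -29 in Krtap8-1 and -31 in Krtap17-1, so the word was present in a member that was not called as well as in 2 that fell.

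Ultra-high sulfur genes were rare in bulk, at 8.98 and 3.53 CPM in all, and made up 54.4% of the family's CPM in the GFP-sorted libraries because of 1 gene. Krtap17-1 measured 1.25 and 0.951 CPM in bulk and 1.30, 0.875 and 2.03 CPM in GFP-sorted 1, 2 and 3. The groups overlapped, and the log2 change was 0.35 ± 0.44 (SE; edgeR adjusted p = 0.75). Without GFP-sorted 3, its highest library, the estimate was -0.01426, so no direction can be given. Krtap17-1 was 0.385% of the family's CPM in bulk and 49.0% of it after sorting. Without this gene the family stood at 0.511% of its bulk level. The other ultra-high sulfur genes were low throughout. Krtap9-3, the highest of them, gave 157 and 119 counts in the bulk libraries against 3, 2 and 2 after sorting (log2 change -5.89 ± 0.61, SE; edgeR adjusted p = 0.00121; -5.11 without bulk 1). Krtap4-1 had 87 and 33 against 0, 0 and 2 counts, and its call was lost without bulk 1 (edgeR adjusted p = 0.117).

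The 4 other tested members that were not called were Krtap3-2, Krtap4-16, Krtap10-10 and Krtap16-1. Krtap3-2, a high sulfur gene, measured 2.71 and 0.807 CPM in bulk and 0.291, 0.468 and 0.171 CPM after sorting, a log2 change of -2.50 ± 0.62 (SE; edgeR adjusted p = 0.063). Its GFP-sorted libraries all lay below both bulk libraries, and 6 of the 13 alternatives called it lower, among them the DESeq2 Wald test (adjusted p = 0.00275). It kept 17.6% of its bulk level, whereas the nearby Krtap3-1 and Krtap3-3 kept 0.653% and 0.896%. The difference between these genes was not tested. They share sequence with each other: 28.9% of the 50-base words of Krtap3-2, 41.3% of those of Krtap3-3 and 8.8% of those of Krtap3-1 occur in another gene. Without bulk 1 the log2 change of Krtap3-2 was -1.39 (edgeR adjusted p = 0.431), and without bulk 2 it was -3.15 (edgeR adjusted p = 0.0392). Krtap16-1 gave 11 and 23 counts in the bulk libraries against 1, 5 and 16 in GFP-sorted 1, 2 and 3 (edgeR adjusted p = 0.573). Krtap4-16 (36 and 19 against 3, 6 and 0 counts) and Krtap10-10 (11 and 18 against 5, 4 and 0) had adjusted p of 0.159 and 0.338 by edgeR. These counts limit what could be detected.

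In the M21 gene order Krtap16-1, a pseudogene and Krtap17-1 stand beside the type I hair keratin genes. Of these neighbours Krt33a measured 98.8 and 89.6 CPM in bulk and 1.24, 0.739 and 0.911 CPM after sorting, and Krt33b, Krt34, Krt31, Krt35 and Krt36 were called lower too. Krt32, a keratin of the hair cuticle singled out after its values were seen, measured 13.7 and 12.4 CPM in bulk and 22.3, 17.5 and 9.91 CPM after sorting (log2 change 0.35 ± 0.33, SE; edgeR adjusted p = 0.672). Krtap17-1 and Krt32 were the tested members of their lists with overlapping groups and a positive estimate.

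Other genes of the hair shaft were lower in the GFP-sorted libraries as well. Of the 14 tested hair shaft keratins, 13 fell and 1 was not called, with a median log2 change of -6.67. Genes of the inner root sheath, the layer that moulds the shaft (8 keratins and trichohyalin, Tchh), fell in 9 of 9 (median -5.48), and other shaft genes in 7 of 7 (median -5.35). The GFP-sorted level was a median of 0.809% of bulk for the tested Krtap genes, 0.972% for the hair keratins and 2.25% for the inner root sheath. Of the 32 Krtap genes, 26 reached the filter's level only in bulk and 7 had 0 counts after sorting. The order of these medians is therefore in part set by the filter, and it was not tested. Of 10 tested regulators of hair-forming cells, 6 fell and 4 were not called (median -1.52). The 4 were Foxq1, Gata3, Prdm1 and Barx2. Barx2 measured 153.5 and 141.8 CPM in bulk and more in every GFP-sorted library, 214.8, 204.1 and 233.9 CPM (log2 change 0.56, edgeR adjusted p = 0.181). Hoxc13, an activator of hair keratin and Krtap genes, measured 26.5 and 26.4 CPM in bulk and 7.45, 6.17 and 6.50 CPM after sorting (log2 change -1.98 ± 0.20, SE; edgeR adjusted p = 0.00114). Lef1 measured 8.56 and 16.8 CPM in bulk against 0.165, 0.287 and 0.279 CPM (log2 change -5.70 ± 0.42, SE; edgeR adjusted p = 3.14e-04). Markers of some other cell types moved with the family. Of the melanocyte genes 7 of 8 fell (121.0 to 288.6 CPM summed in bulk, 10.7 to 17.4 CPM after sorting). The immune genes fell in 6 of 6 (233.9 to 244.3 against 17.1 to 33.1 CPM). Of 6 genes of the outer root sheath and companion layer, 1 fell (Krt75), 1 rose (Krt16) and 4 were not called (median 0.44). Krt16 changed by 1.19 (edgeR adjusted p = 0.0322), a call lost without GFP-sorted 1 (0.0633) or GFP-sorted 2 (0.1). Of the suprabasal genes 3 of 6 fell (Lor, Flg and Sbsn), and of the fibroblast genes 2 of 5 (Dcn and Pdgfra; 106.2 to 141.8 CPM summed in bulk, 8.02 to 116.8 CPM after sorting). Their part in the result was not tested. None of the 7 basal layer genes was called by edgeR, although of the 4 tried under the alternatives the DESeq2 Wald test called Krt14 higher (adjusted p = 0.002).

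**Figure D3:**
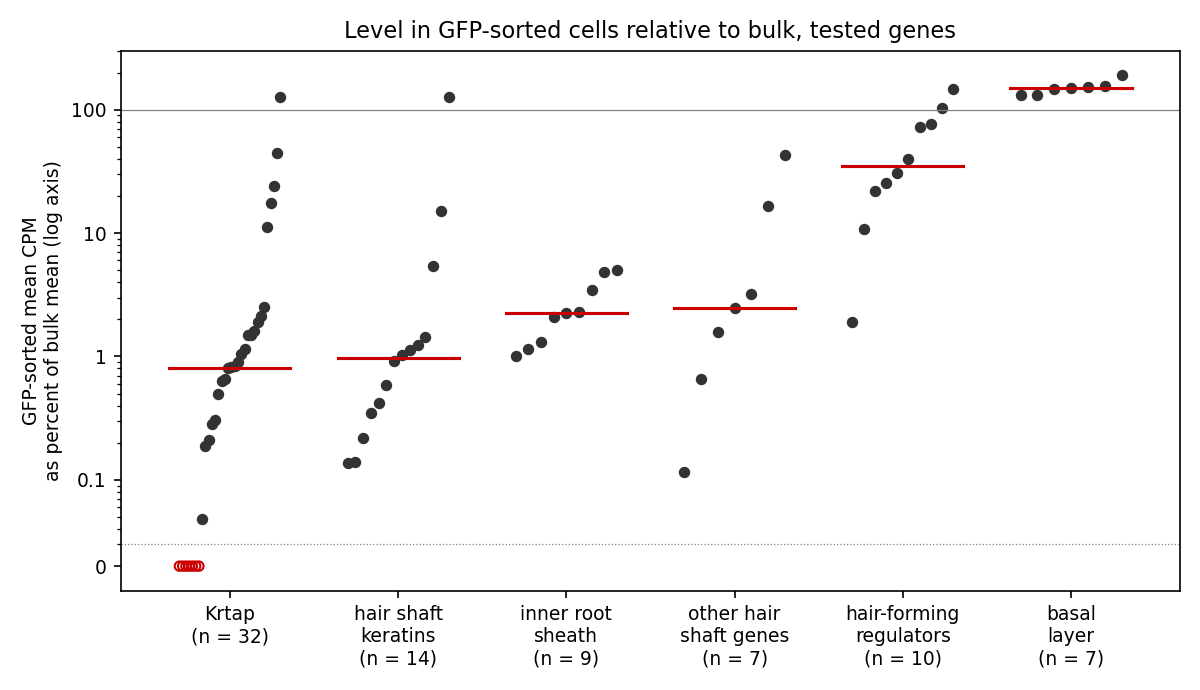
GFP-sorted mean CPM as percent of the bulk mean (log axis) for each tested gene of the Krtap family and 5 gene lists; each point is a gene, red lines are medians, and open symbols below the dotted line are the 7 Krtap genes with 0 counts in every GFP-sorted library. The medians of the Krtap genes and hair shaft keratins lie near 1% of bulk, with single genes of both sets up to 127%. All basal layer genes lie above 100%.

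The bulk libraries also differed from each other. The CPM in bulk 2 over that in bulk 1 had a median of 0.387 over the 32 tested Krtap genes (0.146 to 1.29), and 18 of the 32 were more than 2-fold lower in bulk 2 while 0 were more than 2-fold higher; of all tested genes 5.66% were more than 2-fold lower and 5.75% more than 2-fold higher. With 1 library on each side there is no replicate check and no test. The low high glycine-tyrosine genes stood lowest, with 9 of 9 more than 2-fold lower (0.146 to 0.368). The 6 tested Krtap19 genes ran from 0.146 to 0.34. All 6 tested ultra-high sulfur genes were below 1 too (0.204 to 0.878), and 4 of them were more than 2-fold lower. Of the 15 tested high sulfur genes, 5 were more than 2-fold lower. Krtap7-1 and Krtap8-1 had ratios of 0.603 and 0.644, and Krtap11-1 one of 0.936. Krtap13-1 (1.29) and Krtap16-1 (1.12) were the 2 members above 1.

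For the hair keratins the bulk 2 over bulk 1 ratios had a median of 1.1, with 0 of 14 more than 2-fold lower. Inner root sheath genes had a median of 1.81 and summed to 1341 CPM in bulk 1 and 2805 CPM in bulk 2. Melanocyte genes moved in the direction of the Krtap genes (median 0.447). Krtap transcripts are short, with a median length of 853.5 bases against 2915 for all tested genes, and removal of each library's trend with length and GC content left a median of 0.400 and 17 of 32 genes more than 2-fold lower (5.31% of all genes). The part of melanocyte content or of other library differences was not tested.

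**Figure D4:**
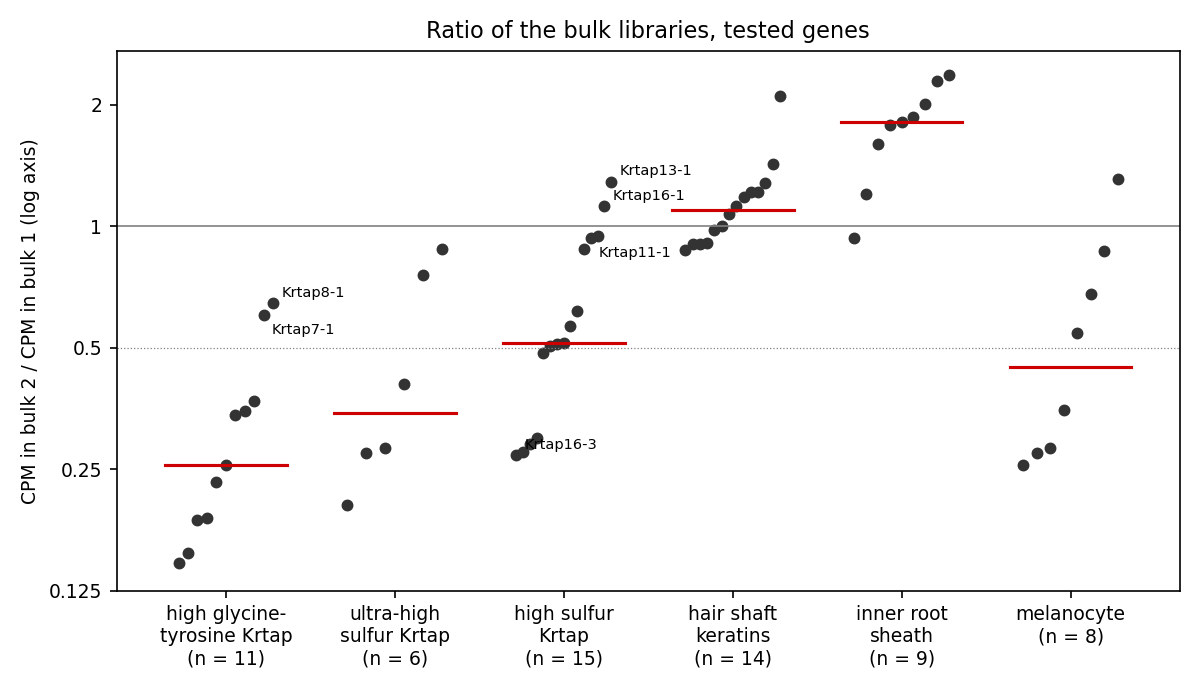
CPM in bulk 2 divided by CPM in bulk 1 (log axis) for each tested gene of the 3 Krtap classes and of 3 gene lists; points are genes, red lines are medians, the solid line marks equal levels and the dotted line a ratio of 0.5. The high glycine-tyrosine and ultra-high sulfur genes are all below 1, and the inner root sheath genes lie mostly above it.

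Many members resemble each other, and nothing is given in the sources used here on how the authors assigned shared reads. Of the 58 members, 16 had no 50-base word of their transcript in common with another gene and 42 had some, 15 of them more than 20%. The 16 held 91.6% of the family's CPM in bulk and included Krtap7-1, Krtap8-1, Krtap11-1, Krtap13-1, Krtap14, Krtap15, Krtap17-1 and Krtap22-2. Among the 27 members called lower, 10 shared no such word. Values of single genes with much sharing are uncertain for this reason, among the tested ones Krtap10-10 (44.4% of its words), Krtap2-4 (43.8%), Krtap3-3 (41.3%), Krtap3-2 (28.9%) and Krtap6-1 (28.3%).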

How the data were processed

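RNA was extracted with Trizol and column clean-up and sequenced, per the labels' protocols. The authors deposited whole-number counts per gene, not normalized; the submitters' processing notes name STAR and GRCm39. For versions, the counting tool, annotation and strandedness, nothing is given in the sources used here. Symbols came from GENCODE M21 (GRCm38): 52073 of 56691 IDs matched. No coordinates in the files' build are printed; promoters carry those of GRCm38.p6.

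From the counts, edgeR 4.0.16 in R 4.3.3 was run on all 5 libraries (TMM scaling, filterByExpr with minimum count 10 and minimum total 15, group term, two-sided quasi-likelihood test, adjusted p threshold 0.05). Totals were 56829330 to 105887450 counts. Library pairs within a group differed beyond sampling noise. The test was tested on simulated data. Alternatives were other scalings, DESeq2 1.42.0, other filters, a length and GC trend (loess span 0.3), a replicate block and each library left out. Named genes were the highest member of each subfamily in bulk, the 5 highest after sorting, the 3 smallest changes, every uncalled tested member, and up to 4 per list by p; of these, the ones bearing on the family are printed. The members and lists were chosen with earlier results of these data known.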

Additional observations from a re-analysis of the deposited data

How the results depend on the processing

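The count of 27 Krtap genes called lower was 27 with DESeq2 size factors and with library size alone, and 28 with the DESeq2 Wald test and after removal of the trend with length and GC content. It was 41 of 52 with no filter on low counts and 12 of 13 with a minimum of 1 CPM in 2 libraries, where fewer genes were tested. Leaving out each library gave 12 to 24 calls, with the 12 without bulk 1. The count called higher was 0 under all 13 alternatives. Scaling by library size alone moved the median log2 change of all genes from 0.05 to -0.07. The labels do not say that title numbers name animals, and only 2 pairs exist: the difference between the bulk libraries and that between GFP-sorted 1 and 2 correlated across genes (r = 0.474). With the number as a replicate block, 30 Krtap genes were called lower (30 with the trend removed too). That fit had 1 residual degree of freedom against 3. It called 3652 of all 18583 tested genes lower and 3040 higher, against 955 and 27 in the fit reported. Krt14, Krt15, Itga6 and Itgb1 of the basal layer were among those called higher (edgeR adjusted p 1.96e-06, 0.000537, 0.0147 and 0.00537). Krtap3-2, Krtap4-16 and Krtap16-1 were among those called lower. The Krtap17-1 estimate was 0.35 in the fit reported, -0.02995 with the replicate block, -0.20 with block and trend, and -0.01426 to 0.5994 with each library left out, lowest without GFP-sorted 3; the cause was not tested. Depth limits members with few counts, and 20 counted members were not tested.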
